A study of Mus musculus with 20 samples.

Results

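Bhlhe40, Bhlhe41 and Ciart are 3 of the 21844 genes measured in mouse hindlimb muscle, chosen by symbol from the deposited table, with 1 row each. Bhlhe40 (ENSMUSG00000030103, also called DEC1) and Bhlhe41 (ENSMUSG00000030256, also called DEC2) are paralogous basic helix-loop-helix repressors. Ciart (ENSMUSG00000038550, also called CHRONO) is a clock repressor outside that family. All are protein-coding genes, Bhlhe40 on chromosome 6, Bhlhe41 on chromosome 6 on the opposite strand, and Ciart on chromosome 3.

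The circadian clock turns on transcription through the heterodimer of CLOCK and BMAL1, which binds E-box sequences such as CACGTG in its target genes. PER and CRY proteins close the main feedback loop. BHLHE40 and BHLHE41 close another one: they bind E-boxes themselves and repress the genes that CLOCK:BMAL1 activates, their own included. CIART binds the CLOCK:BMAL1 complex and represses its activity. BHLHE40 and BHLHE41 are also known outside the clock as genes induced by hypoxia, hormones and other stimuli, and BHLHE41 is known in muscle as a repressor of differentiation.

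The study compared muscle with and without BMAL1, the product of the gene listed here as Arntl, in mice that stayed sedentary or trained daily on a treadmill for 6 weeks. Every mouse, the vehicle controls included, carried the genotype Cre+:iMSBmal1 fl/fl, a floxed Bmal1 with an inducible muscle-specific Cre. There were 4 groups of 5 libraries. They are called vehicle sedentary, knockout sedentary, vehicle trained and knockout trained, where knockout means labelled iMSBmal1KO. Strain, age, sex, the promoter that drives Cre and the agent that switches it on are not in the labels, nor is it said that the libraries of a group came from separate animals, so a p-value measures only the spread between these samples. The labels name 2 muscles, the gastrocnemius as source and the tibialis anterior as tissue, and 2 collection times, 48 hours post and, in the series design, 47 hours after the last bout.

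The Ciart and Bhlhe41 promoters are shown because the E-box is the sequence through which BMAL1 reaches its targets, and because these genes differ in how many copies they hold. The sequences are RefSeq's, on build GRCm38.p6, 5′ to 3′ on the gene's own strand, with each CACGTG in capitals. They are the part of a window from 250 bases before to 50 bases after the RefSeq start that lies upstream of every annotated start of the gene.
Ciart, chr3:95882258-95882478, minus strand: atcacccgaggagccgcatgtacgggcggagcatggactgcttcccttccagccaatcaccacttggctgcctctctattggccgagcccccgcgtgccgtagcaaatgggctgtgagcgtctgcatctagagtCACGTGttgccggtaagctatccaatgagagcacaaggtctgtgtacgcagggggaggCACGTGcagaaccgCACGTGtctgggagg
Bhlhe41, chr6:145865559-145865670, minus strand: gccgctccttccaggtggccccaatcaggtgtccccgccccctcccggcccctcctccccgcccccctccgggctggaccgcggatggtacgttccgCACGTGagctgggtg
The Ciart stretch of 221 bases holds 3 copies of CACGTG, whose first bases stand at -116, -58 and -44 from the RefSeq start. The Bhlhe41 stretch of 112 bases holds 1 copy, at -153. CACGTG reads the same on both strands. The related sequence CACGTT, searched on both strands, is in neither stretch. Of all 32851 promoter windows of the same 300 bases, 7.15% hold at least 1 CACGTG, 0.594% at least 2 and 0.0883% at least 3. Among other known CLOCK:BMAL1 targets with a window in the table, 3 of 11 (27.3%) hold it, Cry1, Per1 and Tef, against 11.6% of the 10291 tested genes with a window. A match is a description of the letters and no evidence of binding, and no binding was measured here. Of the 3 genes, 2 matched the promoter table, and Bhlhe40 is named only.

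Several facts of the whole series bear on the values below. Library totals lay between 10610333 and 19153527 estimated counts. Among the knockout trained libraries, 1 and 4, and likewise 3 and 5, differed by no more than sampling noise. Each such pair was counted as 1 sample, which leaves n = 3 in that group and 18 samples in all. Vehicle trained library 2 stood apart from every other sample: 4858 genes differed more than 2-fold from its group, against 194 to 1118 in the other samples. Results of the 3 genes that rest on it are therefore given with and without it. For other genes the calls are given both ways, and most sizes with it only. CPM below are estimated counts scaled to a common library total of 1000000. Arntl, the targeted gene, stood higher under the knockout label than in vehicle sedentary muscle, at 13.2 ± 3.28 CPM (SD, n = 5; sedentary) and 10.9 ± 4.45 CPM (SD, n = 3; trained) against 6.79 ± 0.890 CPM (SD, n = 5). In vehicle trained libraries it measured 132.3 CPM in library 2 and 6.32 to 6.68 CPM in the other 4. A value per gene does not show whether reads came from the floxed part, so these values do not check the deletion. Marker genes of muscle fibres (Ckm, Acta1, Myh4, Myh1 and Tnnt3) were abundant in every sample, with a summed level of 43331.7 to 70073 CPM, lowest in vehicle trained library 2.

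Bhlhe40 and Ciart were lower in the libraries labelled knockout than in the vehicle libraries, in both sedentary and trained muscle, with no overlap between the groups. Of tested genes, 3.77% in sedentary and 3.98% in trained muscle showed such a separation in the lower direction. Bhlhe40 was 2.15-fold lower in sedentary and 2.67-fold lower in trained muscle, or 2.03-fold when the outlying vehicle trained library 2 was left out. Ciart was 4.00-fold lower in sedentary muscle, and its difference in trained muscle lay at the edge of the test's threshold. Bhlhe41 lay lower by a smaller amount that did not pass the test in either state. No difference with training passed the test in any of the 3 genes.

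**Figure D1:**
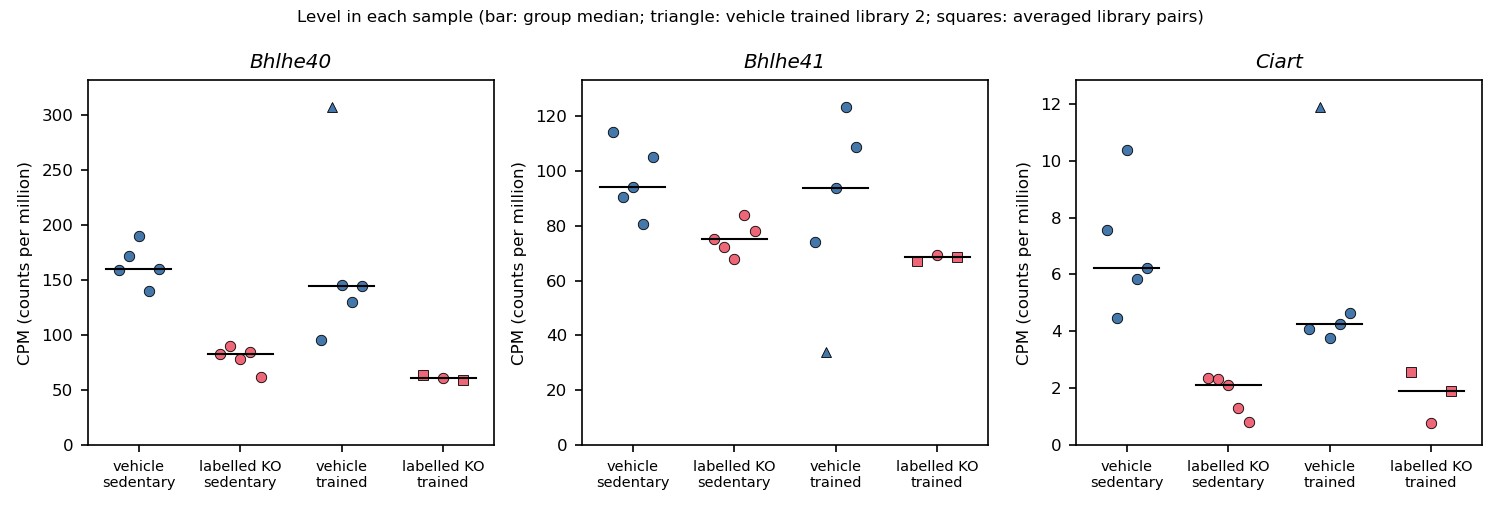
Level of Bhlhe40, Bhlhe41 and Ciart in CPM (vertical axes, starting at 0) in each of 18 samples, by group (horizontal axis). KO marks libraries labelled knockout, black bars are group medians, triangles are vehicle trained library 2 and squares are averages of 2 near-identical libraries. For Bhlhe40 and Ciart all labelled knockout samples lie below all vehicle samples of the same training state, and for Bhlhe41 the groups overlap.

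In vehicle sedentary muscle Bhlhe40 measured 159.3, 172.2, 190.2, 140.0 and 160.3 CPM in libraries 1 to 5, a mean of 164.4 ± 18.5 CPM (SD, n = 5). In knockout sedentary muscle it measured 82.8, 90.3, 78.5, 84.5 and 62.0 CPM, a mean of 79.6 ± 10.7 CPM (SD, n = 5). The highest of these 5 libraries lay below the lowest vehicle library, a separation in the lower direction that 3.77% of tested genes showed in this comparison. The fitted log2 change was −1.11 (SE 0.238), a 2.15-fold lower level (edgeR's quasi-likelihood test, Benjamini-Hochberg adjusted p = 0.0135). Bhlhe40 and Ciart were 2 of 3 genes called lower here, where 1.31% of the 14359 tested genes were called lower.

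In trained muscle Bhlhe40 measured 95.4, 307.6, 145.9, 130.2 and 144.9 CPM in vehicle libraries 1 to 5. Library 2 was the highest of all 20, and library 1 lay closest to the knockout range. In the knockout trained samples it measured 63.4 CPM for libraries 1 and 4 together, 60.7 CPM for library 2 and 59.1 CPM for libraries 3 and 5 together, a mean of 61.1 ± 2.20 CPM (SD, n = 3). The groups did not overlap, as for 3.98% of tested genes in the lower direction. The log2 change was −1.42 (SE 0.287; edgeR adjusted p = 0.00921), and Bhlhe40 was the only 1 of the 3 genes called lower in trained muscle, against 1.3% of tested genes. Without vehicle trained library 2 the mean of that group went from 164.8 ± 82.4 CPM (SD, n = 5) to 129.1 ± 23.6 CPM (SD, n = 4), and the log2 change to −1.02 (SE 0.154; edgeR adjusted p = 0.000308), a 2.03-fold lower level. The call was lost when knockout trained libraries 3 and 5 were left out (edgeR adjusted p = 0.0584) and when the fit held only the groups compared (edgeR adjusted p = 0.315).

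Ciart was the least abundant of the 3 genes, with 10 to 199 estimated counts per library, so counting error is a larger part of its spread. It measured 7.58, 4.46, 10.4, 5.84 and 6.23 CPM in vehicle sedentary libraries 1 to 5, a mean of 6.90 ± 2.25 CPM (SD, n = 5). In knockout sedentary libraries it measured 2.37, 2.33, 2.11, 1.30 and 0.813 CPM, a mean of 1.79 ± 0.693 CPM (SD, n = 5). No knockout library reached the lowest vehicle library, as for 3.77% of tested genes in the lower direction. The log2 change was −2.00 (SE 0.391; edgeR adjusted p = 0.00660), the largest among the 3 genes in this comparison.

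In vehicle trained muscle Ciart measured 4.10, 11.9, 3.75, 4.27 and 4.63 CPM. As for Bhlhe40, library 2 was the highest of all 20, and the other 4 lay within 1 CPM of each other. The knockout trained samples measured 2.57 CPM for libraries 1 and 4, 0.765 CPM for library 2 and 1.91 CPM for libraries 3 and 5, a mean of 1.75 ± 0.913 CPM (SD, n = 3). Libraries 3 and 5 by themselves measured 2.61 and 1.21 CPM. The groups did not overlap, as for 3.98% of tested genes in the lower direction, or 8.5% without vehicle trained library 2. The log2 change of −1.67 (SE 0.460) missed the threshold over all samples (edgeR adjusted p = 0.0543). The change was smaller without vehicle trained library 2, −1.16 (SE 0.348), and passed it (edgeR adjusted p = 0.0450), in a comparison where 3.65% of tested genes were then called lower. Ciart's effect in trained muscle thus lay near the threshold either way, at 3.18-fold lower with that library and 2.23-fold without it.

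Bhlhe41 measured 114.3, 90.5, 94.2, 80.7 and 105.3 CPM in vehicle sedentary libraries 1 to 5, a mean of 97.0 ± 13.1 CPM (SD, n = 5). In knockout sedentary libraries it measured 75.2, 72.4, 68.1, 84.1 and 78.2 CPM, a mean of 75.6 ± 6.05 CPM (SD, n = 5). The groups overlapped, since knockout library 4 lay above vehicle library 4. The log2 change was −0.42 (SE 0.218; edgeR adjusted p = 0.597). The range of 2 SE either side ran from −0.86 to 0.02, which takes in no change. Vehicle trained library 2 is in neither group here but shares the fit. Without it the log2 change was −0.41 (SE 0.125; edgeR adjusted p = 0.0548). The range was then −0.66 to −0.16, which leaves out no change, although the adjusted p still missed the threshold. The call was made when the fit held only the groups compared (edgeR adjusted p = 0.0304).

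In trained muscle Bhlhe41 measured 74.3, 34.0, 93.7, 123.4 and 108.8 CPM in vehicle libraries 1 to 5. Library 2, the highest for Bhlhe40 and Ciart, was the lowest of all 20 for Bhlhe41. The knockout trained libraries measured 67.1, 69.2, 72.5, 67.4 and 65.1 CPM, a mean over the 3 samples of 68.4 ± 1.04 CPM (SD, n = 3). They lay between vehicle library 2 and the other 4 vehicle libraries. The log2 change was −0.28 (SE 0.254; edgeR adjusted p = 0.597), and 2 SE either side ran from −0.79 to 0.22. The groups no longer overlapped without vehicle trained library 2, as for 8.5% of tested genes in the lower direction. The log2 change was then −0.47 (SE 0.152; edgeR adjusted p = 0.0610). Its range of 2 SE either side, −0.78 to −0.17, left out no change, although the adjusted p missed the threshold.

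Per base of transcript the order of the 3 genes was the same in all 4 groups. Divided by the longest annotated transcript in GENCODE M21 (3113 bases for Bhlhe40, 6133 for Bhlhe41 and 1939 for Ciart), the mean level per kilobase in vehicle sedentary muscle was 52.8 ± 5.93 for Bhlhe40, 15.8 ± 2.13 for Bhlhe41 and 3.56 ± 1.16 for Ciart, in CPM per kilobase (SD, n = 5). In knockout sedentary muscle it was 25.6 ± 3.44 for Bhlhe40, 12.3 ± 0.986 for Bhlhe41 and 0.921 ± 0.358 for Ciart. The distance between the paralogs was therefore smaller there. In knockout trained muscle the levels per kilobase were 19.6 ± 0.706 for Bhlhe40, 11.2 ± 0.170 for Bhlhe41 and 0.902 ± 0.471 for Ciart (SD, n = 3).

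**Figure D2:**
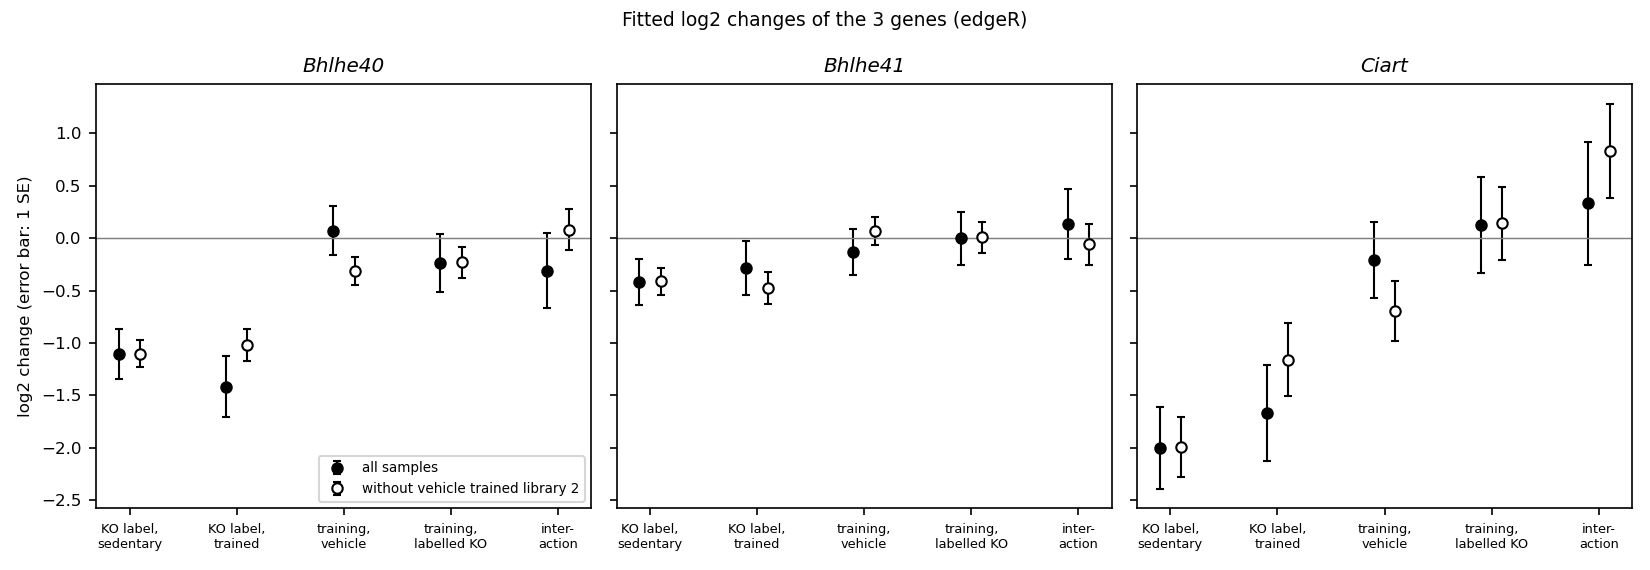
Fitted log2 changes (vertical axis, edgeR, error bars 1 SE) of the 3 genes in 5 comparisons (horizontal axis), with all 18 samples (filled) and without vehicle trained library 2 (open). The labelled knockout changes of Bhlhe40 and Ciart lie below 0 by more than 2 SE in both training states. Those of Bhlhe41 lie closer to 0, and below it by more than 2 SE only without that library. The trained values of Bhlhe40 and Ciart move toward 0 without that library.

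The paralogs can be compared within a library, where the scaling of libraries cancels. The log2 ratio of Bhlhe40 CPM to Bhlhe41 CPM, not corrected for transcript length, was 0.48, 0.93, 1.01, 0.80 and 0.61 in vehicle sedentary libraries 1 to 5. In knockout sedentary libraries it was 0.14, 0.32, 0.20, 0.01 and −0.33. All 5 knockout libraries lay below all 5 vehicle libraries, and the means differed by −0.70. The exact permutation test, two-sided, gave p = 0.00794, the smallest it allows for 5 against 5, and 0.0317 after Benjamini-Hochberg adjustment over the 4 comparisons made. In sedentary muscle Bhlhe40 was thus reduced more than Bhlhe41, with 10 of 10 libraries on the side of their group. Without knockout sedentary library 5 the difference was −0.60 and missed the threshold (exact permutation, adjusted p = 0.0635).

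In knockout trained samples the log2 ratio was −0.08, −0.19 and −0.22, so Bhlhe41 counts exceeded Bhlhe40 counts in every one. In vehicle trained libraries it was 0.36, 3.18, 0.64, 0.08 and 0.41, all above 0. The groups did not overlap, but the exact permutation test of the means gave p = 0.143, and 0.238 adjusted, with library 2 far above the rest. Without library 2 the difference was −0.54 (exact permutation p = 0.0571, adjusted 0.0762). With training, the ratio differed by 0.17 in vehicle muscle (exact permutation p = 0.984, adjusted 0.984) and by −0.23 in knockout muscle (exact permutation p = 0.179, adjusted 0.238). Without library 2 the difference in vehicle muscle was −0.39 (exact permutation p = 0.0397, adjusted 0.0762).

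**Figure D3:**
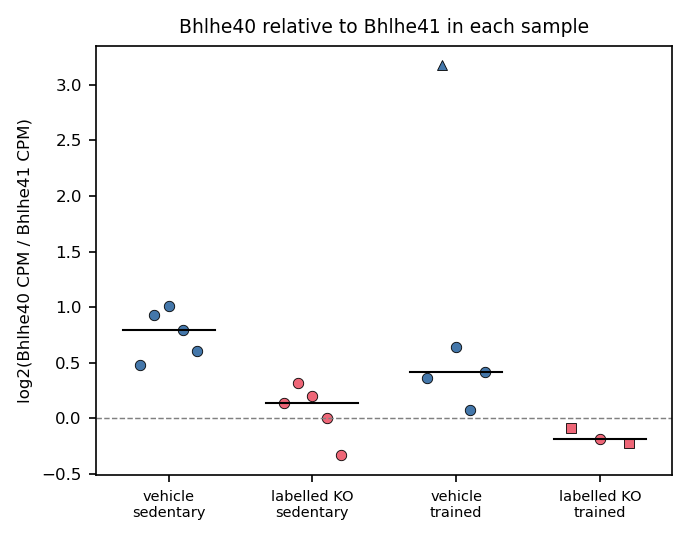
The log2 ratio of Bhlhe40 CPM to Bhlhe41 CPM (vertical axis) in each of 18 samples by group (horizontal axis), with group medians as black bars, vehicle trained library 2 as a triangle and averaged library pairs as squares. In sedentary muscle every labelled knockout library lies below every vehicle library, and all 3 knockout trained samples lie below 0.

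Training gave no call in any of the 3 genes. The training comparisons and the knockout comparisons share samples, so their values are not independent of each other. In vehicle muscle the log2 changes with training were 0.07 (SE 0.235) for Bhlhe40, −0.14 (SE 0.218) for Bhlhe41 and −0.21 (SE 0.362) for Ciart, with edgeR adjusted p of 0.888, 0.754 and 0.777. All 3 genes overlapped between the groups. Over all genes, edgeR called 0 of 14359 in this comparison (0%), while 2186 had an unadjusted p under 0.05 and DESeq2 also called 0. Without vehicle trained library 2 the log2 changes were −0.31 (SE 0.131) for Bhlhe40, 0.07 (SE 0.132) for Bhlhe41 and −0.69 (SE 0.284) for Ciart, with edgeR adjusted p of 0.363, 0.839 and 0.360, and edgeR again called 0 genes (0%). The sign of Bhlhe40 and that of Bhlhe41 therefore depend on that library, and that of Bhlhe40 also on the scaling (−0.02 with upper-quartile scaling). Without it, 2 SE either side ran from −0.58 to −0.05 for Bhlhe40 and from −1.26 to −0.12 for Ciart, both below 0, although neither passed after adjustment over all genes.

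In knockout muscle the log2 changes with training were −0.24 (SE 0.275) for Bhlhe40, −0.00 (SE 0.252) for Bhlhe41 and 0.13 (SE 0.459) for Ciart, with edgeR adjusted p of 0.914, 0.999 and 0.994. The groups overlapped for all 3 genes. Here edgeR called 0 genes (0%), 1394 had an unadjusted p under 0.05, and DESeq2 called 173. With vehicle trained library 2 left out edgeR called 0.843% of genes, the 3 repressors not among them (adjusted p of 0.433, 0.988 and 0.892). The interaction, which asks whether the labelled knockout changes the training response, was −0.31 (SE 0.361) for Bhlhe40, 0.13 (SE 0.333) for Bhlhe41 and 0.33 (SE 0.585) for Ciart, with edgeR adjusted p of 0.824, 0.924 and 0.889. None of the 14359 genes was called for the interaction by edgeR (0%), 1076 had an unadjusted p under 0.05, and DESeq2 called 29. The Ciart interaction was 0.83 (SE 0.448; edgeR adjusted p = 0.497) without vehicle trained library 2, and edgeR still called 0 genes (0%).

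The 3 genes were set beside 13 other known targets of CLOCK:BMAL1: the repressors Per1, Per2, Per3, Cry1 and Cry2, the nuclear receptors Nr1d1 and Nr1d2, the PAR bZIP activators Dbp, Tef and Hlf, the NAD-synthesis enzyme Nampt, the cell-cycle kinase Wee1 and the deubiquitinase Usp2. In sedentary muscle 5 of the 13 were called lower and none higher, where 1.31% of tested genes were called lower. Of the 13, 12 had a negative log2 change. The median log2 change of the 13 was −0.73, against 0.01 over all tested genes. Dbp fell by 1.77 (SE 0.447; edgeR adjusted p = 0.0415), from 134.4 ± 14.5 to 41.0 ± 6.03 CPM (SD, n = 5 each). Nr1d2 fell by 1.24 (SE 0.133; edgeR adjusted p = 1.95e-05), Usp2 by 1.15 (SE 0.215), Per2 by 1.09 (SE 0.104) and Tef by 1.03 (SE 0.104) on the log2 scale. The fall of Bhlhe40 was therefore near those of Per2, Tef and Usp2 in size, and that of Ciart was nearest to that of Dbp. Cry1 stood at 0.05 (SE 0.121).

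In trained muscle 3 of the 13 were called lower, Nr1d2, Per2 and Tef, where 1.3% of tested genes were called lower. Of the 13, 12 had a negative log2 change. The median log2 change of the 13 was −0.91, against −0.03 over all genes. Per2 fell by 1.37 (SE 0.126) on the log2 scale, from 37.8 ± 5.44 (SD, n = 5) to 14.3 ± 1.05 CPM (SD, n = 3). When vehicle trained library 2 was left out, 3.84% (sedentary) and 3.65% (trained) of tested genes were called lower. Of the 13, 10 were called lower and none higher in each training state. These were Cry2, Dbp, Hlf, Nr1d1, Nr1d2, Per2, Per3, Tef and Usp2 in both, with Per1 in sedentary and Wee1 in trained muscle. None of the 13 was called in a training comparison or for the interaction, with or without that library.

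**Figure D4:**
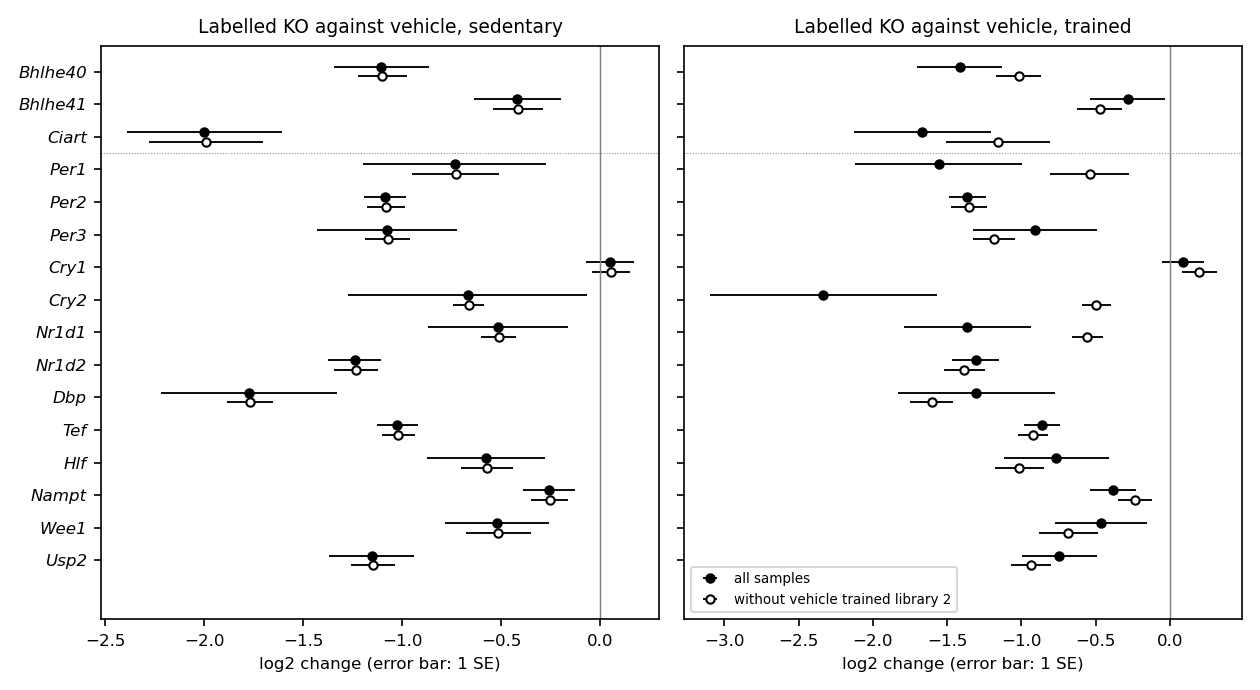
Fitted log2 changes (horizontal axes, edgeR, error bars 1 SE) between labelled knockout and vehicle muscle of Bhlhe40, Bhlhe41, Ciart (above the dotted line) and 13 other CLOCK:BMAL1 targets, in sedentary (left) and trained muscle (right), with all samples (filled) and without vehicle trained library 2 (open). In sedentary muscle 12 of the 13 lie below 0, and in trained muscle Cry2, Per1 and Nr1d1 are the ones that move most toward 0 without that library.

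Of 8 other clock genes, Clock and Npas2, the DNA-binding partners of BMAL1, rose in sedentary muscle. Clock went up from 33.4 ± 3.00 CPM (SD, n = 5) to 79.5 ± 6.98 CPM (SD, n = 5), a log2 change of 1.20 (SE 0.158; edgeR adjusted p = 0.000166), in a comparison where 1.02% of tested genes were called higher, and Npas2 from 0.384 ± 0.276 to 3.38 ± 0.911 CPM. In trained muscle, where 1.99% of tested genes were called higher, Clock rose by 0.70 (SE 0.177) and Rora, a nuclear receptor that activates Arntl, fell by 1.45 (SE 0.359) on the log2 scale. The size for Rora rests in part on vehicle trained library 2. Its vehicle trained mean was 242.1 ± 167.0 CPM (SD, n = 5), or 168.0 ± 24.9 CPM (SD, n = 4) without that library. In knockout trained muscle Rora measured 87.8 ± 8.66 CPM (SD, n = 3). With vehicle trained library 2 left out, Arntl, Clock, Nfil3 and Npas2 rose and Csnk1e and Rora fell in both states; 3.14% of tested genes were then called higher in sedentary and 5.01% in trained muscle.

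Few genes that share a family or a binding partner with the 3 repressors passed the test. Over all tested genes 1.31% were called lower and 1.02% higher in sedentary muscle, and 1.3% and 1.99% in trained muscle. At those shares a list this short would hold few calls or none. Of 9 related helix-loop-helix repressors (Hes1, Hes6, Hey1, Hey2, Heyl and Id1 to Id4), 8 were tested, and Hes6 alone was called: it rose in trained muscle from 6.62 ± 0.927 (SD, n = 5) to 11.5 ± 1.65 CPM (SD, n = 3; log2 change 0.84, SE 0.148; edgeR adjusted p = 0.00339). Leaving out vehicle trained library 2, it rose in sedentary muscle also, by 0.40 (SE 0.120; edgeR adjusted p = 0.0479). Of 10 corepressors and binding partners (Hdac1, Hdac2, Hdac3, Ncor1, Sin3a, Sirt1, Ep300, Crebbp, Rxra and Nr3c1), none was called in sedentary muscle. In trained muscle Nr3c1, the glucocorticoid receptor, fell by 0.38 (SE 0.101; edgeR adjusted p = 0.0453), and without that library Hdac3 also rose, by 0.35 (SE 0.102; edgeR adjusted p = 0.0387). In the fit without that library, 3.14% of tested genes were called higher in sedentary and 5.01% in trained muscle.

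Bhlhe40 and Bhlhe41 are known as hypoxia-responsive genes, so 10 hypoxia-inducible genes were read beside them (Vegfa, Pdk1, Slc2a1, Bnip3, Ankrd37, Egln3, Adm, Ndrg1, Hk2 and P4ha1). None was called in sedentary muscle, where 1.31% of tested genes were called lower and 1.02% higher. For lists this short, no call is near the share over all genes. Hk2, which phosphorylates glucose in the first step of its use, fell in trained muscle by 1.67 (SE 0.428; edgeR adjusted p = 0.0391). In that comparison 1.3% of tested genes were called lower. The vehicle trained mean of Hk2 was 692.2 ± 583.5 CPM (SD, n = 5), or 433.0 ± 79.2 CPM (SD, n = 4) without library 2. In knockout trained muscle Hk2 measured 217.9 ± 36.7 CPM (SD, n = 3). In the fit without vehicle trained library 2, Hk2 fell in both states and P4ha1 in trained muscle, with 0 of the 10 higher. In that fit 3.84% of tested genes were called lower and 3.14% higher in sedentary muscle, and 3.65% and 5.01% in trained muscle. Of 12 glucocorticoid and stress genes (Fkbp5, Tsc22d3, Klf15, Sgk1, Zbtb16, Foxo1, Cebpd, Mt1, Mt2, Trim63, Fbxo32 and Cdkn1a), none was called in sedentary muscle, and in trained muscle Fkbp5 fell by 1.52 (SE 0.399) and Tsc22d3 fell by 1.13 (SE 0.293) on the log2 scale. The vehicle trained mean of Fkbp5 was 81.0 ± 58.8 CPM (SD, n = 5), or 54.8 ± 5.78 CPM (SD, n = 4) without library 2. In knockout trained muscle Fkbp5 measured 27.8 ± 8.69 CPM (SD, n = 3). Tsc22d3 stood at 890.9 CPM in vehicle trained library 2 and at a mean of 372.6 CPM in the others of its group. Without that library Foxo1 and Tsc22d3 fell and the cell-cycle inhibitor Cdkn1a rose in both states, and Fkbp5 fell in trained muscle. Cdkn1a measured 9.01 ± 1.28 CPM in vehicle and 127.8 ± 24.5 CPM in knockout sedentary muscle (SD, n = 5 each), with no overlap. In sedentary muscle Cdkn1a was called by edgeR without vehicle trained library 2, where it stood at 800.7 CPM, and not with that library. Its calls under the other settings are not given here.

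Vehicle trained library 2 set the 3 repressors apart from each other. Its Bhlhe40 level of 307.6 CPM was 2.38 times the mean over libraries 1, 3, 4 and 5, and its Ciart level of 11.9 CPM was 2.84 times theirs. Its Bhlhe41 level of 34.0 CPM was 2.94-fold under theirs. The other CLOCK:BMAL1 targets also divided in it, with 5 of 13 above and 7 of 13 below all other libraries of the group: Cry2 stood at 776.5 CPM against 55.4 to 66.6, and Dbp at 5.48 CPM against 103.1 to 128.8. All 12 glucocorticoid and stress genes stood above the other 4 libraries, by a median of 3.23 on the log2(CPM + 1) scale. Among hypoxia-inducible genes 5 of 10 stood above and 5 of 10 below. The part of these differences in the repressors' levels was not tested. The share of all tested genes that stood outside the other 4 libraries was not counted. In this library 4858 genes lay more than 2-fold from the group, so these counts do not set the lists apart from other genes.

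The genes whose pattern was most like each repressor were found by Pearson's r of log2(CPM + 1) over the 17 samples without vehicle trained library 2. These values describe the samples only: the samples fall into labelled knockout and vehicle clusters, share library totals and were ranked over all tested genes. For Bhlhe40 they were Sos2 (r = 0.970), Met (0.969), Cep85l (0.964), Nr1d2 (0.956) and Per2 (0.955). For Ciart they were Abcg4 (0.909), Aph1c (0.908), Rhbdl3 (0.899), Stxbp4 (0.898) and Tef (0.896). For Bhlhe41 they were Slc16a3 (0.924), a lactate and pyruvate transporter, Pgm1 (0.916), Polk (0.911), Smtnl2 (0.910) and Mettl21e (0.906). Of the 13 listed CLOCK:BMAL1 targets, Nr1d2 and Per2 stood among the first 5 for Bhlhe40, Tef among those for Ciart, and none among those for Bhlhe41. With library 2 included, the r of Sos2 with Bhlhe40 went to 0.718 and that of Stxbp4 with Ciart to 0.00934, while Cep85l with Bhlhe40 (0.962) and Slc16a3 with Bhlhe41 (0.953) moved little.

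In bulk muscle, fewer cells of a type and less RNA per cell cannot be told apart. Marker lists of blood, adipocytes, Schwann cells, endothelial cells, macrophages and satellite cells, and that of muscle fibres, held no gene called by edgeR in any comparison, with or without vehicle trained library 2. No list had a marker at 0 throughout a group. Summed macrophage markers ranged from 39.5 to 171.7 CPM in vehicle sedentary and from 61.8 to 186.6 CPM in knockout sedentary muscle, and from 124.6 to 280.1 CPM in vehicle trained and 42.2 to 250.5 CPM in knockout trained muscle. Summed satellite cell markers ranged from 21.3 to 28.2, 25.4 to 36.9, 8.65 to 29.9 and 24.2 to 28.1 CPM in the same order of groups. The ranges overlapped within each training state, and their part in the repressors' levels was not tested.

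Each of the 3 genes overlaps an annotated gene on the opposite strand in GENCODE M21, and whether the counting used strand is not given in the sources used here, so their counts are uncertain to that extent. Ciart lies wholly within such an overlap, of 3749 bases with C920021L13Rik, which itself measured 0.133 to 1.32 CPM. Bhlhe41 shares 1876 bases with Gm43909, at 1.51 to 6.45 CPM, and Bhlhe40 shares 306 bases with 0610040F04Rik, at 0 to 0.731 CPM. For Ciart the highest of these values is near the level of the gene itself in the labelled knockout samples. The group of the library with that highest value is not given here, so it may not be a labelled knockout library.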

How the data were processed

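RNA-seq libraries of total RNA (Trizol and Qiagen RNeasy extraction, Illumina kit, per the labels) were analysed from the authors' deposited table of estimated counts per gene, 20 libraries and 21844 genes. Of its values 72.0% are whole and totals differ between libraries, so they are not scaled. The submitters' processing notes name STAR 2.7.8a, Partek and DESeq2 and the builds mm10 and GRCm39, with no role for each; annotation and strandedness are not given in the sources used here. The estimated counts were rounded. All 190 library pairs were compared with Poisson noise, and the 2 pairs whose noise at 1000 to 10000 counts was under 1.5 times that at 10 to 100 counts were summed (averaged for means).

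Genes with CPM of at least 1 in at least 5 libraries (14359) were tested with edgeR 4.0.16 in R 4.3.3: TMM scaling, 4 group means, quasi-likelihood test, two-sided, Benjamini-Hochberg adjustment over all tested genes, threshold 0.05. Each SE is the log2 change divided by the square root of its F statistic. The test was tried on simulated counts for the knockout and training comparisons. It recovered 5 to 11 of 50 changes of 1.5-fold, 27 to 32 of 50 of 2-fold and 43 to 49 of 50 of 4-fold. A missing call therefore does not show that a change of 1.5-fold is absent. Alternatives used DESeq2 1.42.0, limma 3.58.1 with pseudocounts of 1 and 0.1, voom, other scalings, filters and sample sets, and each sample left out. The Bhlhe40 to Bhlhe41 ratio was tested by exact permutation over samples (scipy 1.17.1). With the replicate block it was tested by exact sign flips of the differences between same-numbered libraries. GENCODE M21 gave transcript lengths and overlaps, and RefSeq the promoters. The genes named are the 3 repressors, the genes of the lists given, where called or where a result turns on them, and the 5 most similar patterns per repressor. Members and lists were chosen with earlier results of these data known, and the noise limit after seeing the values. Of the lists' genes, 2 are not reported here.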

Additional observations from a re-analysis of the deposited data

Results flagged for a closer look

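Values of each of the 3 genes and of the log2 ratio of Bhlhe40 to Bhlhe41 were compared within each group that has 5 samples, 12 groups of values in all. A single sample stood far from the rest of its group, with a gap to its nearest neighbour above Dixon's 95% limit, in 3 of them, where chance gives about 0.6. All 3 were in vehicle trained library 2: Bhlhe40 at 307.6 CPM, Ciart at 11.9 CPM and the log2 ratio at 3.18. They are not separate results, since they come from the same library and the ratio is made from Bhlhe40 and Bhlhe41. The 3 therefore cannot be weighed against 0.6 as independent flags. Bhlhe41, at 34.0 CPM the lowest of its group, did not pass that limit.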

How the results depend on the processing

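Values are log2 changes. The labelled knockout effects of Bhlhe40 and Ciart in sedentary muscle kept their direction and passed the threshold under all 32 alternatives (−1.17 to −1.04 and −2.13 to −1.54). In trained muscle Bhlhe40 passed under 30 of 32 and missed with only the groups compared (−1.42), and with samples left out it ranged from −1.57 to −1.02. Ciart in trained muscle passed under 9 of 32: DESeq2 (−1.70), limma with a pseudocount of 1 (−1.23) or 0.1 (−1.62), 20 separate libraries (−1.55), the replicate block, DESeq2 or DESeq2 size factors without vehicle trained library 2 (−1.17 and −1.15, both chosen after seeing the data) and 2 of the fits with a sample left out, which ranged from −1.94 to −1.16. Bhlhe41 passed in sedentary muscle with only the groups compared (−0.42) and, without vehicle trained library 2, with DESeq2 or its size factors (−0.42 each), and in trained muscle with DESeq2 without that library (−0.47).

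No training or interaction value passed the threshold under any alternative, and small ones changed sign. Bhlhe40 with training in vehicle muscle was −0.0224 with upper-quartile scaling, −0.0607 and −0.0617 with the limma pseudocounts, −0.0592 with voom and −0.32 with both settings without vehicle trained library 2, where Bhlhe41 was 0.0622; with samples left out these ranged from −0.31 to 0.22 and from −0.25 to 0.0677. Bhlhe41 with training in knockout muscle was 0.0056 with DESeq2 or its size factors, 0.0068 with no filter, 0.0001 with either limma pseudocount, 0.0004 with voom, 0.0262 with 1 library kept of each pair, 0.0090 with both settings without vehicle trained library 2, and from −0.0356 to 0.0738 with samples left out; Ciart there ranged from −0.16 to 0.44. Without vehicle trained library 2, DESeq2 and its size factors gave interactions of 0.0895 and 0.0896 for Bhlhe40 and −0.0532 for Bhlhe41, and leaving out samples gave −0.46 to 0.0804 and −0.0612 to 0.26. The ratio difference ranged from −0.77 to −0.60 in sedentary muscle and, with training in vehicle muscle, from −0.39 to 0.38 with samples left out; with 20 separate libraries it passed in trained muscle (−1.09). The cause of these changes was not tested.

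Same-numbered libraries of different groups showed no common deviation: 11 of 30 pairs had r over 0.1 (−0.337 to 0.295). In 7 of the 30 the library correlated best with its own number. The check gave no sign that the numbers pair samples, but it cannot exclude that they were matched. With the replicate block on 20 libraries, Ciart in trained muscle was −1.52 (edgeR adjusted p = 0.0336). Bhlhe40 with training was −0.0114 in vehicle muscle and Bhlhe41 with training 0.0056 in knockout muscle. The block in edgeR called 980 genes in trained muscle. For the ratio, the block flipped the signs of the 5 differences between same-numbered libraries. The ratio difference in sedentary muscle was −0.70 (exact sign-flip p = 0.0625, adjusted 0.125). That p is the smallest this test allows, so it could not pass the threshold whatever the values.

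Genes called by edgeR over the whole table numbered 334 in sedentary muscle (251 to 1245 over the alternatives) and 473 in trained muscle (20, with only the groups compared, to 1616), and 0 for training in vehicle muscle (up to 22), in knockout muscle (up to 684) and for the interaction (up to 87). Ciart's low counts limit its precision.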
